A study of Homo sapiens with 6 samples.

Results

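The genes described here are TCN1 and 9 further genes of vitamin B12 (cobalamin) handling, 10 of the 24108 rows of the deposited expression table, each found as 1 row whose gene identifier contains the symbol. TCN1 was chosen by its FPKM difference between the groups in these same libraries, so its values are a description without a test. TCN2, CD320, LMBRD1, MMACHC, MMAA, MMAB, MTR, MTRR and MUT (current symbol MMUT) were listed for their role in B12 handling. Levels are in FPKM, the fragments assigned to a gene scaled by transcript length and by the size of the library, and the values of a group are given in the order of replicates 1, 2 and 3.

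RNA sequencing compared MDA-MB-231 cells, a human triple-negative breast cancer line, after knockdown of the zinc finger transcription factor ZNF148 with control cells. The 3 shZnf148 libraries came from cells given a lentivirus with a short hairpin RNA (shRNA) against ZNF148, and the 3 shCtr libraries from cells given the same vector with a hairpin against luciferase, an enzyme that human cells do not make of their own. Both groups were transduced for 48 h and then selected for 24 h in puromycin at 0.5 µg/ml. The labels name a single knockdown condition, without a further hairpin or a rescue, and nothing in the labels says that the 3 libraries of a group were separate cultures, so the p-values measure the spread between these libraries only.

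Vitamin B12 travels in body fluids bound to carrier proteins. Transcobalamin, the product of TCN2, delivers it to the receptor encoded by CD320, and the complex is taken into lysosomes, while haptocorrin, the product of TCN1, binds B12 in secretions and plasma and is best known from neutrophil granules and from glandular epithelium. After release from the lysosome B12 is trimmed and passed on to the only human enzymes known to need it, methionine synthase in the cytosol and methylmalonyl-CoA mutase in mitochondria.

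The target sequence of the study's ZNF148 hairpin is shown because every comparison rests on the knockdown; the sample labels do not themselves name a hairpin.
shZNF148: cccttggtgaatgtaaatgat
ZNF148 measured 3.72, 4.36 and 4.30 FPKM in shCtr and 0.914, 0.282 and 0.834 FPKM in shZnf148. The groups did not overlap, and the mean fell from 4.13 ± 0.354 to 0.677 ± 0.344 FPKM (SD, n = 3 each; limma with Benjamini-Hochberg adjustment over all tested rows, adjusted p = 0.0099). The lowest ZNF148 level was in shZnf148 replicate 2. The 5 markers listed as present in this line were all expressed, with VIM at 1507 to 1842 FPKM, and all 5 were lower on average after knockdown. EGFR passed (66.6 ± 5.05 against 43.5 ± 4.97 FPKM, adjusted p = 0.0200 with limma), but not without shCtr replicate 1, 2 or 3 (adjusted p = 0.0895, 0.0640 and 0.0851), and CD44 and AXL had adjusted p of 0.0185 and 0.0364 in limma with changes under 1.5-fold. Of the 5 markers listed as low, ESR1, the estrogen receptor gene, was listed at 0 in all 6 libraries, whereas EPCAM had means of 10.6 and 9.04 FPKM and GATA3 of 8.22 and 8.71 FPKM in shCtr and shZnf148. The row that joins ERBB2 with a microRNA measured 20.1, 126.3 and 20.1 FPKM in shCtr and 24.8, 125.0 and 21.9 FPKM in shZnf148, high in replicate 2 of both groups.

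The 250 bases upstream of the annotated start are shown for the gene with the largest difference, for the receptor that moved the other way and for MMACHC, all from RefSeq on GRCh38.p14 and written 5′ to 3′ along the gene's strand. Capitals mark CCCCC, a run of the kind of C-rich sequence that ZNF148 is known to bind.
TCN1, chr11:59866488-59866737, minus strand: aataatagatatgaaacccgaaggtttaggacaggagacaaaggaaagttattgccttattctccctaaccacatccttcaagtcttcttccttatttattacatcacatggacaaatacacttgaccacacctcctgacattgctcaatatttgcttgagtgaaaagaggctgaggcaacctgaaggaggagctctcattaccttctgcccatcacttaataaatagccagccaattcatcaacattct
CD320, chr19:8308359-8308608, minus strand: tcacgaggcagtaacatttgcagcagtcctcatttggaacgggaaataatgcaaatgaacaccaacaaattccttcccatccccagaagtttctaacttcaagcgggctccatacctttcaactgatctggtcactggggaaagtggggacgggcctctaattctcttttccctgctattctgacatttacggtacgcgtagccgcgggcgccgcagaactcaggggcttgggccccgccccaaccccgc
MMACHC, chr1:45500050-45500299, plus strand: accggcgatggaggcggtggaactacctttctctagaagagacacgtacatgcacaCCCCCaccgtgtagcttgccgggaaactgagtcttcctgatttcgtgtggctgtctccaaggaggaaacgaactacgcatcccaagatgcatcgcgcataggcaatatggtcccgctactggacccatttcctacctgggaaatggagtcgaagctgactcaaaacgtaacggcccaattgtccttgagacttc
Promoters were found for 8 of the 10 genes, with none for TCN2 and MTRR, so the counts below do not cover those genes. The TCN1 window held 40.0% G and C, against a median of 58.0% over 35116 promoters of the same length, and 12.7% of those promoters were lower. CD320 held 53.6% and MMACHC 53.2%. The run CCCCC, or GGGGG on the other strand, occurred in 4 of the 8 windows and in 55.3% of all promoters. The letters CCCTCCC, or GGGAGGG on the other strand, a motif that can overlap the first, occurred in 3 of the 8 and in 24.7% of all promoters. The TCN1 and CD320 windows held neither.

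TCN1 was near 1 FPKM in the control cells and between 6.44 and 27.5 FPKM after ZNF148 knockdown. The haptocorrin gene measured 1.01, 1.01 and 0.938 FPKM in shCtr. In shZnf148 it measured 9.12, 27.5 and 6.44 FPKM. Every shZnf148 library was above every shCtr library, and replicate 2 stood far above the other two. Mean levels came to 0.988 ± 0.0427 FPKM and 14.3 ± 11.4 FPKM (SD, n = 3 each), a ratio of 14.5, and the difference on the log2(FPKM + 1) scale was 2.70 with a standard error of 0.46. Against the control mean, the knockdown libraries were 9.23-, 27.8- and 6.52-fold higher in order of replicate number. Without shZnf148 replicate 2 the knockdown mean was 7.78 FPKM, the ratio 7.88 and the log2 difference 2.13.

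By size of increase TCN1 ranked 22nd among all 11777 tested rows, which it entered through the knockdown group, its control mean being under the minimum. Of the 21 rows ahead of it, none was called by limma (10 had an unadjusted p under 0.05), and 20 were named as small RNA genes (microRNA, small nucleolar or small nuclear RNA), the other being AMDHD2. A row was tested where its mean over the 6 libraries was at least 1 FPKM, and called where its adjusted p from limma lay below 0.05 with over 1.5-fold between the groups. The share of all tested rows with an unadjusted p under 0.05 was not determined. Counts of such rows, here and below, are therefore not set against a background. The SD of TCN1 on the log2(FPKM + 1) scale was 0.03 in shCtr, where the pseudocount compresses values near 1 FPKM, and 1.01 in shZnf148. The medians over all tested rows were 0.09 and 0.14.

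**Figure D1:**
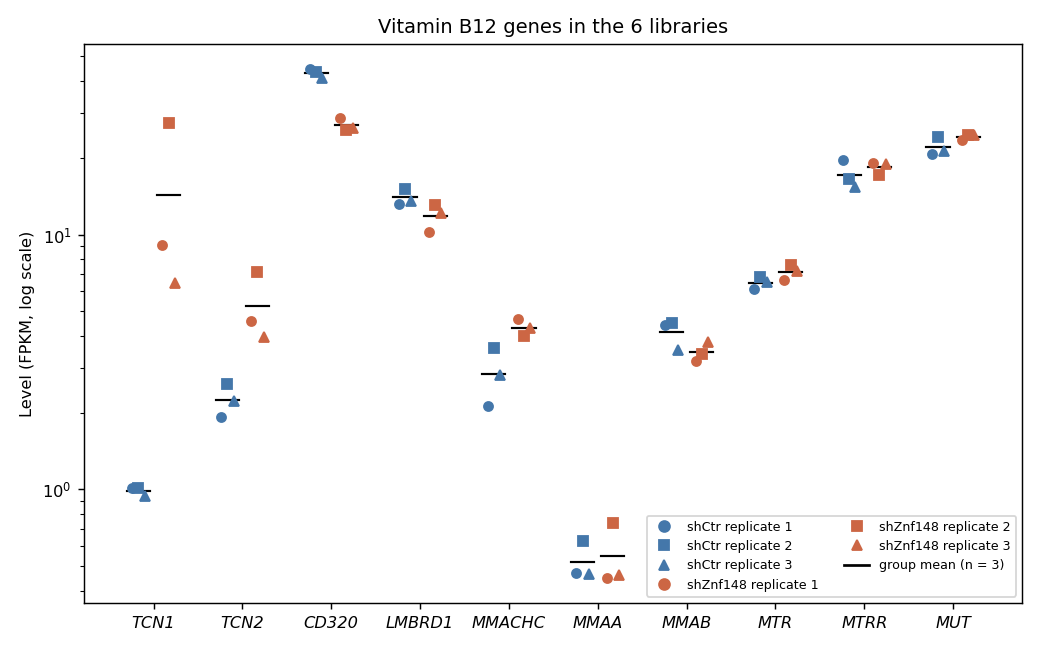
FPKM of the 10 vitamin B12 genes in each library, on a log axis, with the shCtr libraries in blue, the shZnf148 libraries in orange, a marker shape for each replicate number and a bar at each group mean (n = 3). TCN1 lay between 0.938 and 1.01 FPKM in shCtr and between 6.44 and 27.5 FPKM in shZnf148, CD320 had the highest mean of the 10 in both groups, and MMAA stayed under 1 FPKM throughout.

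Of the 9 genes listed for their role, 8 were abundant enough to be tested, 1 of them rose (TCN2) and 1 fell (CD320). Over all tested rows 1.83% were called higher and 3.66% lower. The groups did not overlap for 4 of the 8, higher after knockdown for TCN2 and MMACHC and lower for CD320 and LMBRD1, where 20.0% of all tested rows had every shZnf148 library higher and 21.0% had every one lower. The median log2 difference of the 8 was 0.11, against 0.01 over all tested rows, with 5 higher and 3 lower.

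TCN2, which encodes the carrier that delivers B12 to cells, rose. It measured 1.92, 2.59 and 2.22 FPKM in shCtr and 4.57, 7.13 and 3.97 FPKM in shZnf148. The groups were apart, and replicate 2 was again the highest of the knockdown libraries. Mean levels came to 2.24 ± 0.335 and 5.22 ± 1.68 FPKM (SD, n = 3 each), a ratio of 2.33, and the log2 difference was 0.91 with a standard error of 0.20 (limma 95% interval 0.44 to 1.38, adjusted p = 0.0331). The call was narrow. With limma the adjusted p was 0.125, 0.0787 and 0.112 without shCtr replicates 1, 2 and 3, 0.0742 without shZnf148 replicate 1, and 0.0537 when rows of any level were tested, while the log2 difference stayed between 0.84 and 0.99 in those fits. A pseudocount of 5 FPKM also ended the call, since the change then fell under 1.5-fold. An exact two-sided permutation test of 3 against 3 libraries cannot go below p = 0.1, the value it gave for TCN2.

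The carrier with the higher transcript level differed between the groups. The ratio of TCN1 to TCN2 in FPKM was 0.527, 0.391 and 0.422 in shCtr and 2.00, 3.85 and 1.62 in shZnf148. TCN2 was thus the higher carrier transcript in every control library and TCN1 in every knockdown library. Because TCN2 rose as well, this reversal rests on the rise by which TCN1 was chosen, and it is a description only. Both carriers together summed to between 2.93 and 3.60 FPKM in shCtr and to 13.7, 34.6 and 10.4 FPKM in shZnf148, which follows in large part from the choice of TCN1.

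CD320, the receptor for the transcobalamin and B12 complex, fell. It measured 44.5, 43.5 and 41.0 FPKM in shCtr and 28.7, 25.7 and 26.3 FPKM in shZnf148. Unlike the carriers, which were uneven after knockdown, CD320 was nearly even within each group, and the groups were far apart for their spread. Mean levels came to 43.0 ± 1.84 and 26.9 ± 1.61 FPKM (SD, n = 3 each), a ratio of 0.625, and the log2 difference was −0.66 with a standard error of 0.07 (limma 95% interval −0.83 to −0.49, adjusted p = 0.00955). The adjusted p from limma was 0.0673 without shCtr replicate 1 and 0.0570 without shCtr replicate 3, with log2 differences of −0.63 and −0.69, and the exact permutation test gave its smallest value, 0.1. Even after the fall, CD320 had the highest mean FPKM of the 10 genes, although TCN1 exceeded it in shZnf148 replicate 2. The summed carriers came to between 0.0658 and 0.0828 of the CD320 level in shCtr, and to 0.477, 1.35 and 0.396 of it in shZnf148. This shift follows in large part from the choice of TCN1, which is in the sum, while CD320 is the receptor for the TCN2 product.

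**Figure D2:**
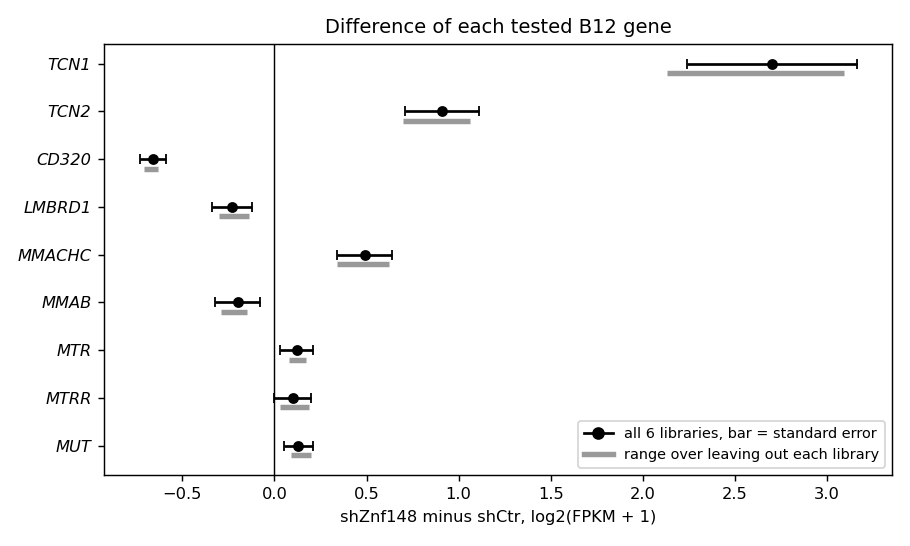
Difference between shZnf148 and shCtr on the log2(FPKM + 1) scale for TCN1 and the 8 tested genes listed for their role, with the standard error from limma as a black bar and, in grey, the range when each of the 6 libraries is left out in turn. TCN2 at 0.91 and CD320 at −0.66 passed the test, the other 6 listed genes did not, and TCN1 at 2.70 is drawn as a description.

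LMBRD1 encodes the lysosomal membrane protein through which B12 leaves the lysosome. It measured 13.2, 15.1 and 13.6 FPKM in shCtr and 10.2, 13.1 and 12.1 FPKM in shZnf148. The groups were separated by a margin smaller than the spread inside either one, with a ratio of means of 0.844, and the log2 difference of −0.23 (95% interval −0.48 to 0.02) did not pass (limma, adjusted p = 0.178).

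MMACHC, the cytosolic protein that strips the upper ligand from incoming B12, measured 2.12, 3.58 and 2.82 FPKM in shCtr and 4.65, 3.98 and 4.31 FPKM in shZnf148. The groups did not overlap, although the control libraries differed more among themselves than the knockdown libraries did. The means were 2.84 ± 0.730 and 4.31 ± 0.335 FPKM, a ratio of 1.52, and the log2 difference of 0.49 with a standard error of 0.15 (95% interval 0.12 to 0.85) missed the threshold (limma, adjusted p = 0.0809, and 0.0702 to 0.191 over the alternative settings). Here shZnf148 replicate 2 was the lowest of the knockdown libraries, in contrast to its place for TCN1 and TCN2.

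In the mitochondrial branch no gene passed. MMAA, a chaperone that guards methylmalonyl-CoA mutase, was under 1 FPKM in every library (0.469, 0.628 and 0.464 in shCtr, 0.450, 0.734 and 0.461 in shZnf148) and was not tested. MMAB, which makes the adenosylcobalamin form that the mutase uses, measured 4.40, 4.50 and 3.52 FPKM in shCtr and 3.18, 3.39 and 3.80 FPKM in shZnf148. The groups overlapped for both genes, and the MMAB log2 difference was −0.20 (95% interval −0.48 to 0.07, adjusted p = 0.266 with limma). MUT, the mutase itself, had the second highest mean FPKM of the 10 genes in both groups, at 20.7, 24.2 and 21.2 FPKM in shCtr and 23.6, 24.5 and 24.5 FPKM in shZnf148. Its log2 difference was 0.13 (95% interval −0.05 to 0.32, adjusted p = 0.270 with limma).

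In the cytosolic branch neither gene passed. MTR, methionine synthase, measured 6.12, 6.82 and 6.48 FPKM in shCtr and 6.61, 7.56 and 7.22 FPKM in shZnf148, with overlapping groups and a log2 difference of 0.12 (95% interval −0.08 to 0.32, adjusted p = 0.359 with limma). MTRR, the reductase that reactivates methionine synthase, measured 19.6, 16.5 and 15.4 FPKM in shCtr and 19.1, 17.1 and 19.0 FPKM in shZnf148, also overlapping, with a log2 difference of 0.10 (95% interval −0.14 to 0.34, adjusted p = 0.527 with limma). The intervals of MTR, MTRR and MUT reached log2 changes of at most 0.34.

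Ordered by mean FPKM, the control cells ran from CD320 through MUT, MTRR, LMBRD1, MTR, MMAB, MMACHC, TCN2 and TCN1 to MMAA. Neighbours in that order overlapped for MMAB with MMACHC and for MMACHC with TCN2. After knockdown TCN1 stood in rank 4 instead of rank 9, although its range of 6.44 to 27.5 FPKM overlapped with those of CD320, MUT and MTRR above it and of LMBRD1, MTR and TCN2 below it. TCN2 and MMACHC moved ahead of MMAB, and TCN2 overlapped with MTR above it and MMACHC below it.

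In RefSeq on GRCh38.p14 the gene on one side of TCN1 is CBLIF, which encodes gastric intrinsic factor, another B12 carrier, and is listed under its older symbol GIF at 0 FPKM in all 6 libraries. Of the 20 nearest protein-coding neighbours of the 10 genes, 11 were tested and none was called by limma. Over all tested rows 1.83% were called higher and 3.66% lower. An unadjusted p under 0.05 was found for 5 of the 11, but the share over all tested rows was not determined. The neighbour of CD320 with the lowest adjusted p was NDUFA7, a respiratory complex I subunit, at 71.8, 81.8 and 66.9 FPKM in shCtr and 57.2, 54.0 and 46.3 FPKM in shZnf148 (log2 difference −0.48, limma adjusted p = 0.0362, under 1.5-fold). MMACHC overlaps PRDX1, MMAB overlaps MVK, and MTRR overlaps FASTKD3 and CFAP90 in that annotation. Whether the counting used strand is not given in the sources used here, so reads of these pairs may be shared and their values are less certain. PRDX1, a peroxiredoxin at a far higher level than MMACHC, measured 461.9, 417.3 and 443.3 FPKM in shCtr and 466.4, 551.8 and 482.6 FPKM in shZnf148.

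Beyond these genes, 3 lists covered the surrounding pathways: 10 other genes of cobalamin transport and its regulators, 6 of the propionate branch, with steps before and after the mutase, and 28 of the folate and methionine cycle that meets methionine synthase. Among the other transport genes 6 were tested and none was called by limma (1, THAP11, had an unadjusted p under 0.05), with 5 higher, 1 lower and a median log2 difference of 0.12. Of all tested rows 1.83% were called higher and 3.66% lower, with a median of 0.01. MMADHC, which sorts B12 between cytosol and mitochondria, was at 69.9, 65.5 and 66.2 FPKM in shCtr and 67.2, 66.5 and 66.6 FPKM in shZnf148 (adjusted p = 0.924 with limma). ABCD4, the partner of LMBRD1 in lysosomal export, had means of 26.0 ± 2.19 and 27.0 ± 1.89 FPKM, and HCFC1, a coregulator of MMACHC transcription, 20.6 ± 1.31 and 22.1 ± 1.97 FPKM (n = 3 each). Named after their values were seen, ABCC1 and THAP11 were the 2 members with groups apart, both higher after knockdown. Every shZnf148 library was higher in 20.0% of all tested rows. THAP11, the HCFC1 partner in that regulation, measured 15.6, 15.4 and 17.4 FPKM in shCtr and 21.0, 23.4 and 18.7 FPKM in shZnf148 (log2 difference 0.36, limma adjusted p = 0.0569).

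In the propionate branch all 6 genes were tested, 1 fell and none rose (2 had an unadjusted p under 0.05, both lower), with 5 lower, 1 higher and a median log2 difference of −0.31. Of all tested rows 3.66% were called lower and 1.83% higher, with 5785 lower, 5992 higher and a median of 0.01. SUCLG2, a subunit of the succinyl-CoA ligase that acts after the mutase, measured 26.3, 26.4 and 28.7 FPKM in shCtr and 15.4, 15.4 and 16.7 FPKM in shZnf148. The groups were tight and far apart, with means of 27.1 ± 1.33 and 15.9 ± 0.742 FPKM and a log2 difference of −0.74 with a standard error of 0.07 (adjusted p = 0.00831 with limma). That adjusted p became 0.0582 without shCtr replicate 1 and 0.0562 without shCtr replicate 3. SUCLG1, its partner subunit, was uneven after knockdown at 45.8, 30.3 and 55.2 FPKM against 57.3, 57.9 and 58.9 FPKM (log2 difference −0.44, limma adjusted p = 0.172). PCCB, a subunit of propionyl-CoA carboxylase, had means of 14.5 and 11.2 FPKM (n = 3 each, log2 difference −0.34 with a standard error of 0.09, limma adjusted p = 0.0561). In SUCLG1 and PCCB, shZnf148 replicate 2 was the lowest library.

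In the folate and methionine cycle 20 of 28 genes were tested and none was called by limma (3 had an unadjusted p under 0.05), with 8 higher, 12 lower and a median log2 difference of −0.08. The shares called over all tested rows were 1.83% higher and 3.66% lower, with a median of 0.01. The most abundant were TYMS, thymidylate synthase, in a row joined with ENOSF1, AHCY, which clears S-adenosylhomocysteine, and SHMT2, the mitochondrial serine hydroxymethyltransferase. Their log2 differences were −0.17, −0.23 and −0.31, with adjusted p of 0.334, 0.152 and 0.115 in limma. In shZnf148, SHMT2 measured 55.5, 42.8 and 58.5 FPKM, against 64.9, 63.9 and 65.2 FPKM in shCtr. Replicate 2 was again the lowest knockdown library.

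**Figure D3:**
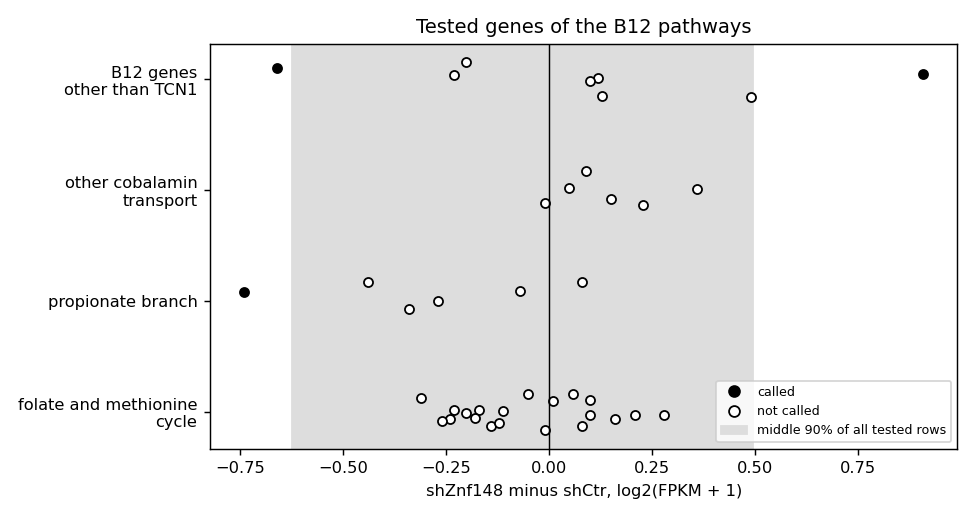
Difference between shZnf148 and shCtr on the log2(FPKM + 1) scale for each tested gene of the B12 genes other than TCN1 and of the 3 pathway lists, filled where called, over a grey band that holds the middle 90% of all 11777 tested rows (−0.62 to 0.50). TCN2, CD320 and SUCLG2 are the filled points and lie outside the band, and points are spread vertically only to separate them.

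The gene profiles most like TCN1 were found by Pearson's r on the log2(FPKM + 1) scale over the 6 libraries, which share the group difference and the high shZnf148 replicate 2. The 8 closest of 11776 rows were SH2B3, BTRC, SMAP2, CHST11, PLCD3, SAMD9L, CTDSP1 and COL6A1, with r from 0.9960 to 0.9997. SH2B3, an adaptor that restrains cytokine receptor signalling, measured 37.8, 37.3 and 36.6 FPKM in shCtr and 57.8, 77.2 and 53.6 FPKM in shZnf148. SAMD9L, an interferon-induced gene, measured 1.63, 1.53 and 1.52 FPKM and then 3.81, 7.28 and 3.57 FPKM. Both had the order of libraries seen for TCN1 after knockdown, with replicate 2 first and replicate 3 last, which follows from their selection by likeness to TCN1. SH2B3, PLCD3, SAMD9L and COL6A1 were called higher, and BTRC, SMAP2, CHST11 and CTDSP1 were not called. TCN2 ranked 107th by this measure with r = 0.99. CD320 had r = −0.93 and MMACHC r = 0.70.

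The interferon-stimulated genes listed were, like TCN1, higher on average after knockdown and highest in shZnf148 replicate 2. The list was chosen with earlier results of these data known. Of 9 listed, 8 were tested and 5 were called higher (IFIT1, IFIT2, IFIT3, OAS1 and OAS2), where 1.83% of all tested rows were. Among the 5, OAS1 reached the minimum of 1 FPKM only through the knockdown group. All 8 had every knockdown library above every control library, as did 20.0% of all tested rows. Their median log2 difference was 0.97, against 0.01 over all tested rows. The summed level of all 9 listed genes was 138.8, 123.6 and 135.9 FPKM in shCtr and 223.8, 502.4 and 232.4 FPKM in shZnf148. IFIT1, an antiviral RNA-binding protein, measured 13.7, 12.8 and 13.4 FPKM and then 31.4, 74.4 and 31.8 FPKM. Replicate 2 was the highest library for the summed list, TCN1 and TCN2 alike, while replicates 1 and 3 were in the opposite order for the summed list and for TCN1. No gene of the list was called when shCtr replicate 1, 2 or 3 or shZnf148 replicate 1 was left out, where IFIT1 had, in that order, adjusted p of 0.106, 0.0872, 0.103 and 0.0576 in limma. The part of the interferon-stimulated genes in the TCN1 and TCN2 values was not tested.

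Because haptocorrin is stored in neutrophil granules and made by secretory epithelium, markers of both were read beside it. Of 15 neutrophil granule genes, 8 were listed at 0 in all 6 libraries (CAMP, CEACAM8, CRISP3, OLFM4, ELANE, MPO, CTSG and CSF3R) and 2 were tested. MMP8, a granule collagenase, measured 0.706, 0.763 and 1.08 FPKM in shCtr and 4.59, 2.57 and 4.54 FPKM in shZnf148, and reached the minimum of 1 FPKM only through the knockdown group (log2 difference 1.38, limma adjusted p = 0.0161). LCN2, an iron-scavenging lipocalin also made by epithelial cells, fell from 151.7, 404.4 and 182.1 FPKM to 71.6, 65.1 and 68.4 FPKM (log2 difference −1.70, limma adjusted p = 0.0283). The sum of the granule genes without LCN2 ran from 2.87 to 3.11 FPKM in shCtr and from 4.52 to 6.31 FPKM in shZnf148. It was lowest of the knockdown libraries in replicate 2, where TCN1 was highest. MMP8 made up most of this sum in every shZnf148 library. The means of AZU1, PRTN3 and LTF fell from 1.15 to 0.751, from 0.864 to 0.817 and from 0.0917 to 0.0577 FPKM. Those of PGLYRP1 and CHI3L1 rose from 0.0475 to 0.133 and from 0 to 0.0284 FPKM. With LCN2 the sum ran from 154.8 to 407.3 FPKM in shCtr and from 69.6 to 77.8 FPKM in shZnf148.

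Among 4 leukocyte markers, the pan-leukocyte gene PTPRC was listed at 0 in the 3 shZnf148 libraries and reached at most 0.115 FPKM in shCtr. LYZ, lysozyme, was the 1 tested, again only through the knockdown group, at 0.598, 0.471 and 0.812 FPKM in shCtr and 2.34, 4.97 and 2.23 FPKM in shZnf148 (log2 difference 1.31, limma adjusted p = 0.0267), in the library order of TCN1. CD14 measured 0.470, 0.863 and 0.745 FPKM in shCtr and 0.750, 2.01 and 0.972 FPKM in shZnf148, and was not tested. CD3E reached at most 0.0786 FPKM in shCtr and, like PTPRC, was listed at 0 in every shZnf148 library. The 4 summed to between 1.09 and 1.67 FPKM in shCtr and between 3.09 and 6.98 FPKM in shZnf148. In shZnf148 the sum was thus made of LYZ and CD14 alone. Of 14 secretory epithelium genes, 13 were found, 8 were listed at 0 throughout and 1 was tested, MUC1, a membrane mucin, which fell from 11.5, 9.95 and 11.7 FPKM to 7.62, 5.56 and 6.41 FPKM (log2 difference −0.68, limma adjusted p = 0.0223). The 13 summed to between 10.6 and 13.0 FPKM in shCtr and between 5.84 and 8.46 FPKM in shZnf148. The MMP8, LCN2, LYZ and MUC1 calls each ended when certain single libraries were left out; without shCtr replicate 1 their adjusted p values from limma were 0.0852, 0.0767, 0.103 and 0.0993. In bulk RNA, a change in the number of cells that make a transcript and a change in its amount per cell cannot be told apart.

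**Figure D4:**
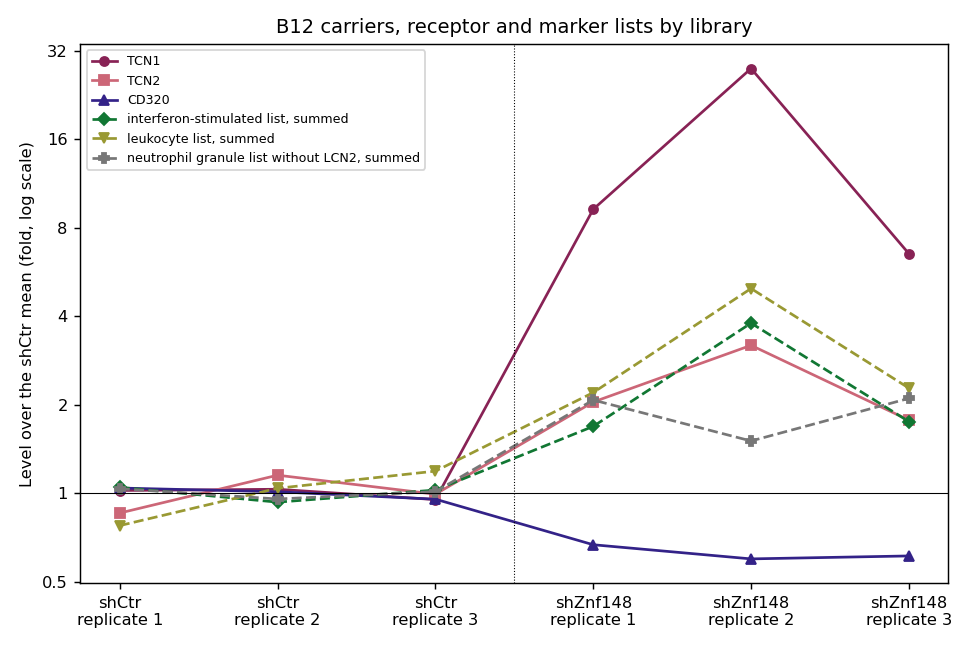
Level of TCN1, TCN2, CD320 and 3 summed marker lists in each library as a fold over the shCtr mean, on a log axis, with solid lines for genes and dashed lines for summed lists; lines join points only to guide the eye. TCN1, TCN2, the interferon-stimulated list and the leukocyte list peaked in shZnf148 replicate 2, with TCN1 at 27.8-fold and TCN2 at 3.18-fold. The granule list without LCN2 was lowest of the knockdown libraries there, and CD320 lay between 0.597- and 0.667-fold in all 3 knockdown libraries. In the knockdown libraries the leukocyte sum came from LYZ and CD14 alone, and the granule sum without LCN2 was mostly MMP8.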

How the data were processed

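The authors deposited 1 table of normalised FPKM values for 3 shCtr and 3 shZnf148 libraries. The submitters' processing notes name bcl2fastq 2.17.1.14, TopHat2 2.0.14, Cufflinks 2.2.1 and Cuffnorm 2.2.1 with builds hg18 and hg19, whereas the study's methods describe another aligner and a count test. FPKM values are not counts, so log2(FPKM + 1) was fitted with limma 3.58.1 (R 4.3.3, empirical Bayes with a mean-variance trend) over the 11777 rows whose mean reached 1 FPKM, with Benjamini-Hochberg adjustment. Calls needed an adjusted p under 0.05 and over 1.5-fold, and fold changes on this scale understate changes of low genes. The fit was checked on simulated data with the same spread in both groups and planted changes larger than those of TCN2, CD320 and SUCLG2. That check therefore does not bear on calls of their size. Read totals are not given: FPKM summed to 469594 to 507312 per library, and the commonest step between low values, shared by 301 to 394 of 1618 to 1831 low rows per library, put depth at 0.806 to 1.13 of shCtr replicate 1. No counting intervals were therefore given.

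Groups came from the sample titles. The genes and lists were chosen with earlier results of these data known. Named were the 10 B12 genes, ZNF148, every called gene and up to 3 most abundant genes of each list, nearest neighbours, and the 8 rows most like TCN1. The B12 genes, their neighbours, the pathway lists and the interferon-stimulated list have their counts of called rows beside the shares over all tested rows. The cell marker lists do not. For counts of unadjusted p the share over all rows was not determined. Older symbols (GIF, MUT) were matched through the gene name table. Alternatives were other filters, pseudocounts, scalings, variance models, summed rows, a replicate block and leaving out each library. Figures were drawn with matplotlib 3.10.9.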

Additional observations from a re-analysis of the deposited data

How the results depend on the processing

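No difference of the 9 tested B12 genes changed direction under the 15 alternatives. The TCN1 log2 difference was 3.45 with a pseudocount of 0.1 FPKM and 1.54 with 5 FPKM, and 2.13 to 3.09 when 1 library was left out. The other B12 genes called higher numbered 0 with no minimum on the mean and 0 with a pseudocount of 5 FPKM, and 0 to 1 on leaving out 1 library, as did those called lower (0 to 1) and the pathway genes called lower (0 to 1). Interferon-stimulated genes called higher numbered 3 with no minimum and 0 to 4 on leaving out 1 library. Over all rows, 76 were called higher and 204 lower with a pseudocount of 5 FPKM. On leaving out 1 library the rows called ranged from 3 to 209 higher and from 19 to 393 lower, with fewer samples in each such fit. The unknown read depth limits what can be said of genes near 1 FPKM, TCN1 in the control cells and MMAA among them.

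The replicate numbers are shared by the groups, but same-numbered libraries did not deviate together (correlations of 0.00104, −0.0881 and 0.0304 for numbers 1, 2 and 3), so the numbers were not taken to pair them, although the row that joins ERBB2 with a microRNA was at 126.3 and 125.0 FPKM in the libraries numbered 2 and at 20.1 to 24.8 FPKM in the others. With the replicate block 99 rows were called higher and 216 lower, 2 interferon-stimulated genes were called higher, and the B12 genes kept their calls.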
